A study of Mus musculus with 6 samples.

Results

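The RNA of wild-type embryoid bodies, grown for 10 days from mouse embryonic stem cells, was hybridised to 2 of the 6 arrays of the series. A gene was taken as detected where its brightest probe was flagged well above background on both wild-type (WT) arrays. This held for 12869 of the 20878 genes with a measured probe and a symbol (61.6%). The profile is described here by level within each array, gene group by gene group, without a contrast between genotypes. The 4 arrays that are not used hold embryoid bodies of 2 lines with a Tet1/2/3 triple knockout (TKO_26 and TKO_29). All 6 arrays share the mixed 129/C57BL6 background and the culture, in which stem cells without the self-renewal factor LIF spent 2 days in hanging drops and 8 days on nonadherent plates. The series calls the WT arrays technical replicas, so they stand for n = 1 line, no p-value was computed, and the spread between the arrays is at most that of the cultures and the assay.

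Embryoid bodies are free-floating aggregates in which stem cells leave pluripotency and form derivatives of ectoderm, mesoderm and endoderm side by side. They typically acquire an outer layer of primitive endoderm and a basement membrane under it, and many develop blood islands, vessels and beating heart muscle. An array of a whole aggregate sums all of its cells, so a low signal can come from few cells with much RNA or from many cells with little, and these cannot be told apart.

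The arrays are 1-colour Agilent arrays, on which a spot's brightness, its processed signal in scanner units, follows both the RNA and the probe. Where several probes of a gene were detected (2892 genes), the brightest and the dimmest lay a median of 2.1 log2 units apart, and 51.8% of these genes had a gap of at least 2. Signals and their percentiles among all measured genes are therefore given to show how well each array saw a gene, and the order of genes within a list is the order of signals, not of transcripts. Replicate 2 was the brighter array. Over the detected genes, the 75th percentile of signal was 8427 there and 5066 on replicate 1. Of all spots, 51.1% against 42.8% were well above background. Detection on a single array was accordingly uneven, with 1555 genes above background on replicate 2 only and 166 on replicate 1 only. A further 6288 genes were well above background on neither array. At the top of the range the scanner saturated for 455 genes on at least 1 array and for 278 on both, and among these no order can be read.

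Detected and undetected genes differed in the sequence before their start sites, which the probes do not measure. The RefSeq promoter table (build GRCm38.p6) held the 250 bases before the start for 15772 of 19701 measured protein-coding genes (80.1%). The promoters of a ribosomal protein gene with saturated signal and of an embryonic globin gene are shown, with each CG in capitals. They stand for the CpG-rich and the CpG-poor kind. Both genes were detected, so the pair does not stand for detected against undetected genes. The Rps23 promoter (chr13:90922872-90923121, plus strand) has 13 CG and no TATAAA. The Hba-x promoter (chr11:32276350-32276599, plus strand) has 1 CG, and a TATAAA begins 28 bases before the start.
Rps23: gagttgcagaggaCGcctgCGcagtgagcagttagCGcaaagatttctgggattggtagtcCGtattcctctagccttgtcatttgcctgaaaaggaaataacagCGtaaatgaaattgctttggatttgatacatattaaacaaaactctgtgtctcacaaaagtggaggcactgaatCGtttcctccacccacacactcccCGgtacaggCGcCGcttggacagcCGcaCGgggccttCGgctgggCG
Hba-x: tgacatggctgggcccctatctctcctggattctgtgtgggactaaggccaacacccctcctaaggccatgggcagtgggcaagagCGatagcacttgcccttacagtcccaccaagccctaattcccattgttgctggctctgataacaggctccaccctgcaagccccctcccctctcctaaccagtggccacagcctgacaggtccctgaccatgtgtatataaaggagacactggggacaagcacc

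Among genes above background on neither array, 16.7% of 4472 promoters held 10 or more CG, with a median of 2. Among genes above background on both arrays the share was 72.5% of 10078, with a median of 15, and over all promoters it was 54.1%. Within the detected genes, split in 4 by signal, the share was 57.5% in the dimmest part, 72.1% and 78.7% in the middle parts and 81.7% in the brightest. The motif TATAAA, searched on both strands, was found in 22.6% of promoters of undetected genes, in 6.56% of those of detected genes and in 11.8% of all. The motif holds only A and T, and its shares were not adjusted for base content. The median share of G and C was 46.4% in promoters of undetected genes and 60% in those of detected genes. Motif hits are matches of letters, and binding was not measured.

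**Figure D1:**
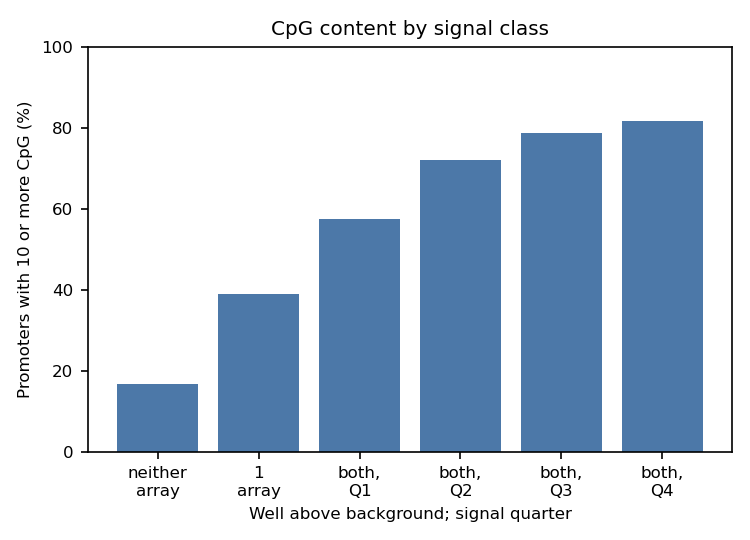
Share of promoters (250 bases before the start site, GRCm38.p6) with 10 or more CpG, on the vertical axis in percent, for genes above background on neither array, on 1 array, and on both arrays split in 4 by signal (Q1 lowest, Q4 highest). The bars run from 16.7% for undetected genes to 81.7% for Q4.

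Genes of the basic machinery of the cell gave the brightest part of the profile. Over 13 housekeeping lists, 486 of 498 genes were detected (97.6%, beside 61.6% of all genes). These lists hold 2.39% of the measured genes and 39.6% of the saturated ones (180 of 455). Of the 40 genes with the highest mean signal, 38 were saturated on both arrays, 20 were in a housekeeping list, 13 of them ribosomal proteins, and 5 carried clone or predicted names.

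Of the 85 genes for proteins of the cytosolic ribosome, 84 were detected, 81 lay in the top 25% of signal on both arrays (95.3%, beside 24.3% of all genes) and 78 were saturated on at least 1 array. Rps23, a protein of the small subunit, had signals of 78016 and 88924 on replicates 1 and 2. Rpl11, a protein of the large subunit, had 77841 and 86195. Both are at the scanner's limit on both arrays. Of the 53 translation factor genes, 50 were detected. Eef1d, part of the elongation factor that reloads eEF1A, was saturated at 75317 and 84723, while Eef1a2, the elongation factor form of adult muscle and neurons, and Eif4e1b, an oocyte form of the cap-binding protein, were above background on neither array. Eif5b, a general initiation factor, was not well above background either, so a missing signal can also belong to a gene that most cells use. Of the mitochondrial ribosomal protein genes, 77 of 78 were detected, all but Mrpl21.

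The energy-producing pathways were detected almost in full. Of the respiratory chain genes 76 of 78 were above background on both arrays, with median percentiles of 97.2 on each array. Cox5a, a subunit of cytochrome c oxidase, was saturated at 77193 and 85010. The undetected members were Cox7b2 and Cox8c, which are testis forms of subunits. All 18 glycolysis genes were detected, 11 of them saturated on at least 1 array, among them Gapdh with 75241 and 74986 and the neuronal and embryonic glucose transporter gene Slc2a3 with 66741 and 77665. All 15 genes of the tricarboxylic acid cycle were detected. Cs, which encodes citrate synthase, had 66876 and 76369 and was saturated on 1 array.

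Protein folding, breakdown and RNA handling were covered as widely. All 21 chaperone genes and all 28 splicing core genes were detected, as were all 10 measured RNA polymerase II subunit genes and all 20 cytoskeleton genes. Hsp90aa1, which encodes a cytosolic chaperone, was saturated at 73449 and 80956. Of the proteasome genes 37 of 39 were detected. The 2 that were not, Psma8 and Psmb11, encode subunits particular to testis and thymus.

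Proliferation genes were detected at day 10. Of the DNA replication genes 31 of 32 were above background on both arrays, with median percentiles of 89.6 and 90.1. Mcm6, a subunit of the replicative helicase, was saturated on both arrays at 56427 and 57110. Rrm2, a subunit of ribonucleotide reductase, had 36118 and 53779. Of the 21 mitosis genes 19 were detected and the others were above background on 1 array. Cdc20, the activator of the anaphase-promoting complex, had 45395 and 67486, and Ccnb1, cyclin B1, had 17994 and 25934.

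A short motif was frequent in the promoters of the mitosis genes, though not in theirs alone. The motif CCAAT, read on either strand with any overlap with TATAAA allowed, occurred in 16 of the 18 mitosis promoters in the table (88.9%) and in 17 of 25 DNA replication promoters (68%), beside 36.1% of all promoters. It was in 25% of 64 cytosolic ribosomal protein promoters. Shares in other small lists varied widely. They were 80% of 10 photoreceptor and lens, 77.8% of 9 globin and 71.4% of 14 neural progenitor promoters, but 14.3% of 14 simple epithelium promoters. A high share was thus not particular to proliferation genes. Among detected genes at large the share, 36.6%, was near that of undetected genes, 35.4%. Cdc20 (chr4:118437344-118437593, minus strand) and Ccnb1 (chr13:100786487-100786736, minus strand) are shown with the CCAAT motifs in capitals, 2 in each.
Cdc20: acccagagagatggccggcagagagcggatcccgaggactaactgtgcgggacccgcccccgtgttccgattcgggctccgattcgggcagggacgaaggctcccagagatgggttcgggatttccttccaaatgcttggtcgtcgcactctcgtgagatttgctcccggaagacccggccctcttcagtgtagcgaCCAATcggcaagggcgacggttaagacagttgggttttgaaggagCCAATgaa
Ccnb1: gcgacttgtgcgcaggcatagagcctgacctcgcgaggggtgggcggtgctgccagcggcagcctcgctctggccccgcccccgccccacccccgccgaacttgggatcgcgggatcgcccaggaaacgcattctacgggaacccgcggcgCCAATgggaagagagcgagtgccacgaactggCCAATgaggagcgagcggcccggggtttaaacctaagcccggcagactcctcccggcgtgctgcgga

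The lineage lists spread over the whole range of detection. Over 32 lists, 337 of 524 genes were detected (64.3%), close to the 61.6% of all genes, but in 8 lists more than 80% of members were detected and in 11 fewer than 45%. Lists share members: 28 genes stand in more than 1 lineage list.

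**Figure D2:**
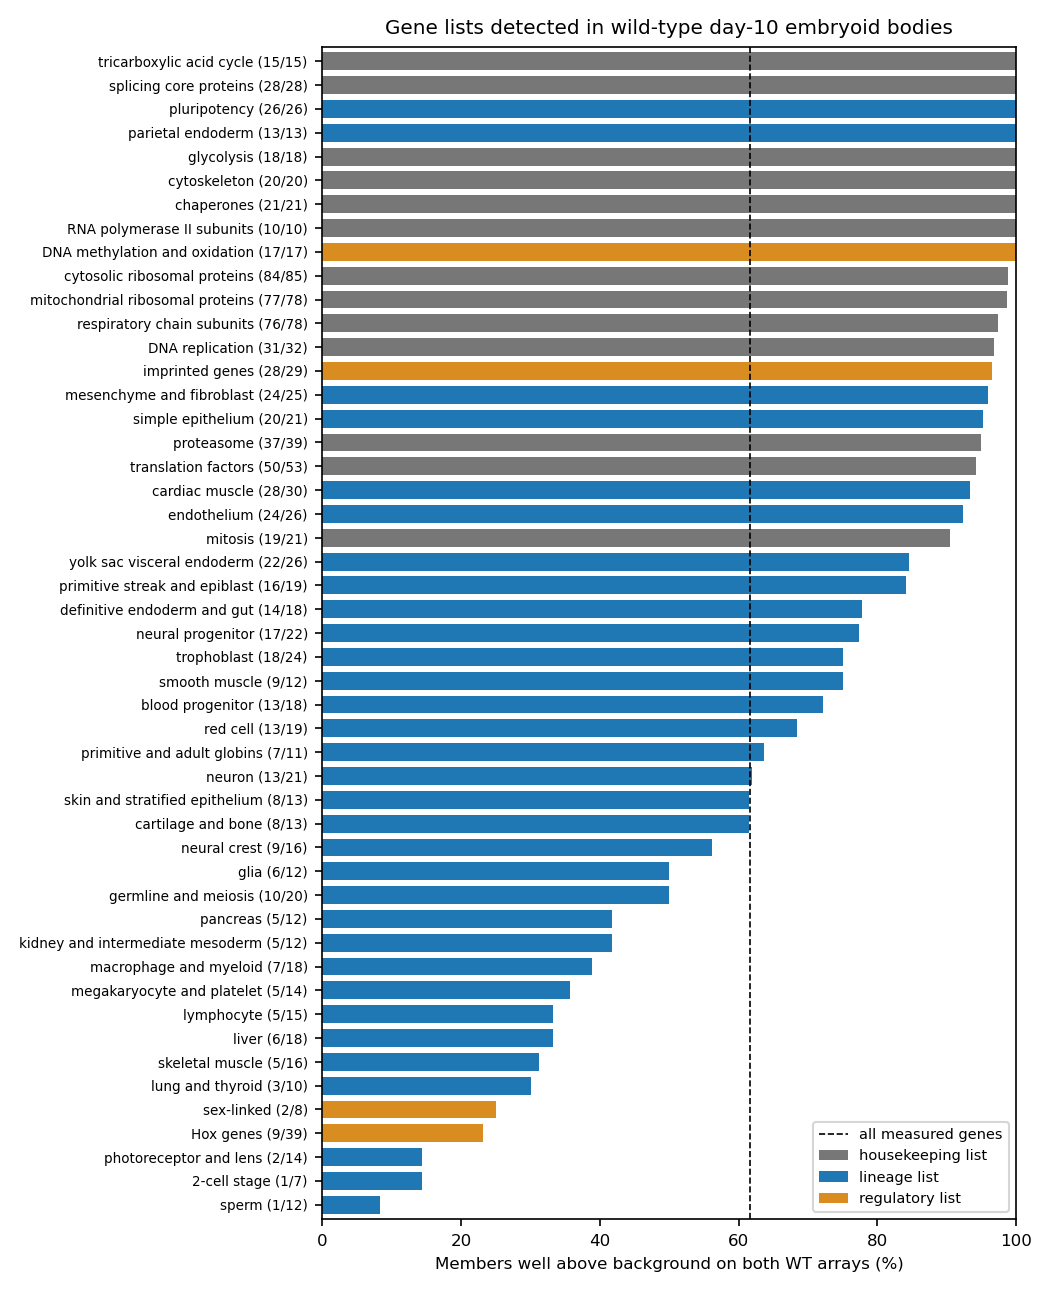
Share of each gene list, in percent, above background on both WT arrays, with the number detected and measured beside each name; grey bars are housekeeping, blue lineage and orange regulatory lists, and the dashed line marks the 61.6% of all measured genes. Housekeeping lists and the pluripotency, parietal endoderm, epithelium, mesenchyme, heart and endothelium lists lie far to the right, and the sperm, 2-cell, photoreceptor and Hox lists far to the left.

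All 26 pluripotency genes were detected (100%, beside 61.6% of all genes), with median percentiles of 82.4 and 81.7. Of the 26, 14 lay in the top 25% of signal on both arrays (53.8%, beside 24.3% of all genes). Dppa5a, an RNA-binding protein of pluripotent cells, was saturated at 57055 and 55378. Lin28a, which blocks maturation of let-7 microRNAs, had 32272 and 49739, and Utf1, a chromatin factor of undifferentiated cells, had 17731 and 25441. Core factors were chosen after their values were seen. Pou5f1 had 5208 and 9505, Sox2 had 1193 and 2626, and Nanog had 520 and 1158. Each of these was well above background on both arrays.

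The epiblast and primitive streak list was detected in 16 of 19 genes (84.2%, beside 61.6% of all genes). The epiblast is the embryonic layer before gastrulation. Dnmt3b, a de novo methyltransferase gene, gave 52140 and 61528 and was saturated on 1 array. Fgf5, a growth factor of the primed epiblast, had 5116 and 8895. Nodal, the ligand that patterns the epiblast, had 4781 and 7747, and its inhibitor Lefty2 had 4452 and 7658. Mesp1, a regulator of nascent mesoderm chosen after its values were seen, had 246 and 273, while Mixl1 and Wnt3a were above background on neither array.

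Endoderm of the extraembryonic kind was among the best covered lineages. All 13 parietal endoderm genes were detected (100%, beside 61.6% of all genes), with median percentiles of 84.6 and 85.2. Sparc, a secreted matrix protein, was saturated at 62574 and 65245 on its brightest probe, while its other probe gave 260 and 294. The laminin chain genes Lamb1, Lamc1 and Lama1 had signals of 27280 and 33233, 16233 and 24749, and 9717 and 17147, in that order, and the basement membrane collagen gene Col4a1 had 6929 and 11376. Laminins and type IV collagen are also made by other cells, including endothelium and epithelium.

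Of the 26 yolk sac visceral endoderm genes 22 were detected (84.6%, beside 61.6% of all genes). Spink1, a secreted trypsin inhibitor, was saturated at 59845 and 61142. Rbp4, the retinol carrier, had 9475 and 16619, and Foxa2, an endoderm transcription factor, had 6252 and 11975. Serum protein genes chosen after their values were seen spread widely: Ttr, for transthyretin, had 4344 and 7542, and Afp, for alpha-fetoprotein, had 433 and 718. Alb, which encodes albumin, and Apoa4, an apolipoprotein gene, were above background on neither array. Of the definitive endoderm and gut genes 14 of 18 were detected (77.8%, beside 61.6% of all genes). The brightest were the keratin genes Krt18 (68496 and 72728) and Krt8 (16279 and 40170), which simple epithelia also express. The intestinal fatty acid binding gene of the liver type, Fabp1, and the liver factor gene Onecut1 were not detected on either array.

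Simple epithelium was detected in 20 of 21 genes (95.2%, beside 61.6% of all genes). Of the 21, 15 lay in the top 25% on both arrays (71.4%, beside 24.3% of all genes). Cldn7, a tight junction claudin, had 16812 and 32069, and Krt19 had 18634 and 29380. Cdh1, which encodes E-cadherin and was chosen after its values were seen, gave only 96.3 and 139, although it was above background on both arrays. Genes of stratified skin were detected in 8 of 13 cases (61.5%), near the background of all genes.

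**Figure D3:**
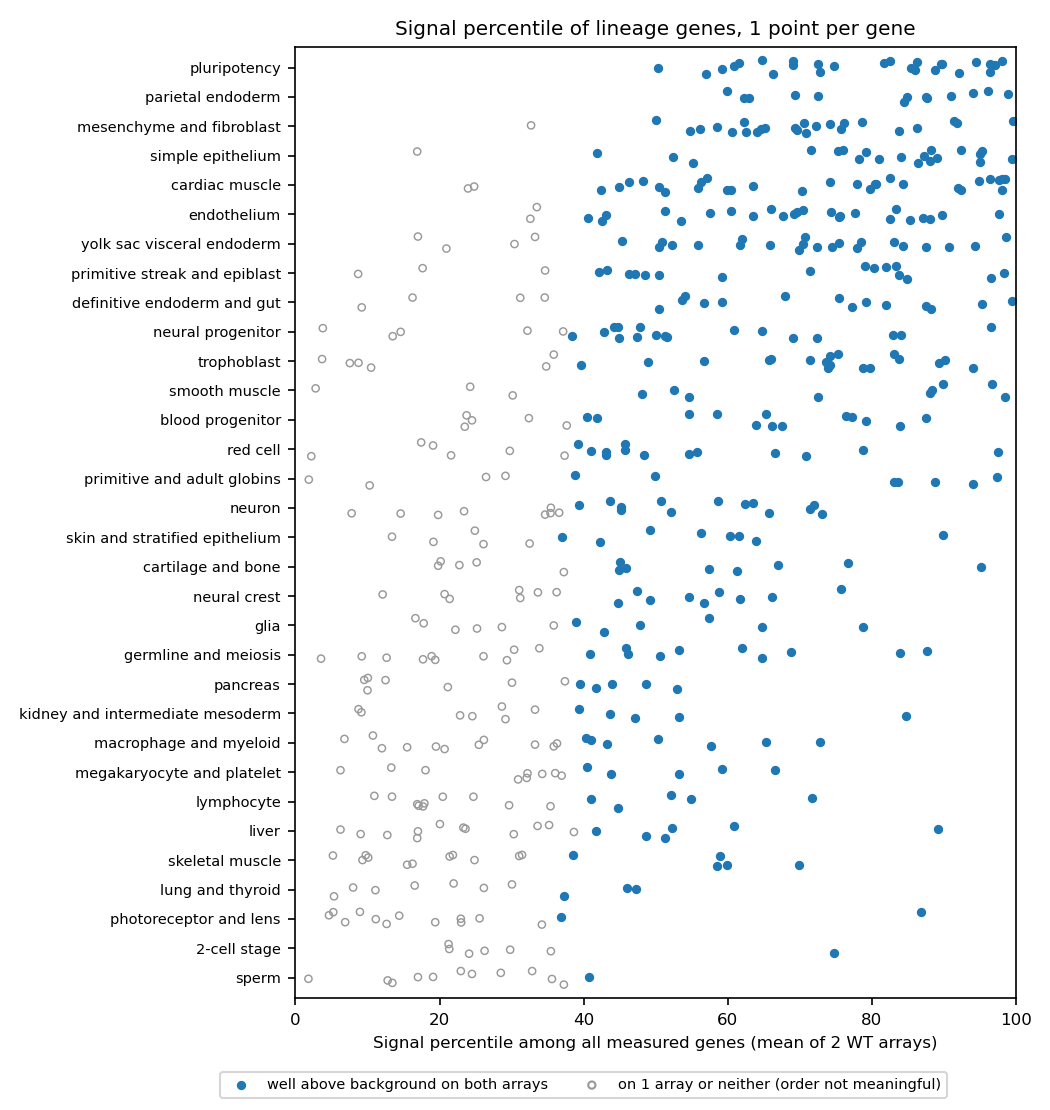
Signal percentile of every lineage-list gene among all measured genes, as the mean of the 2 WT arrays; filled points were well above background on both arrays and open points on 1 array or neither, where the order has no meaning. Lists are ordered by the share detected; the pluripotency and parietal endoderm lists have no open point, whereas the sperm and 2-cell lists have a single filled point each.

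Heart muscle genes were detected in 28 of 30 cases (93.3%, beside 61.6% of all genes). Of the 30, 14 lay in the top 25% on both arrays (46.7%, beside 24.3% of all genes). The sarcomere gave the brightest signals. Actc1, cardiac actin, had 44857 and 67136, and Myl4, the atrial and embryonic essential light chain, 55914 and 55688; both were saturated on at least 1 array. Myh7, the myosin heavy chain of slow and embryonic ventricular muscle, had 29483 and 60783, and Myh6, the atrial form, 24748 and 41072. Among transcription factors chosen after their values were seen, Gata4 had 3053 and 4347, and Nkx2-5 had 1637 and 2367. Pln, the inhibitor of the calcium pump, and Hcn4, the pacemaker channel, were above background on neither array. These were the only undetected members of the list.

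Other muscle was read less widely. Of the smooth muscle genes 9 of 12 were detected (75%, beside 61.6% of all genes). Acta2, smooth muscle actin, was saturated at 58770 and 60065, and Tagln, an actin-binding protein, had 29094 and 42143. Myh11, the smooth muscle myosin, was not detected. Of the skeletal muscle genes 5 of 16 were detected (31.2%), none in the top 25%. Acta1, skeletal actin, had 1264 and 2870. The myogenic regulators Myod1, Myf5, Myf6 and Myog were all above background on neither array.

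Of the 26 endothelial genes 24 were detected (92.3%, beside 61.6% of all genes), and 10 lay in the top 25% on both arrays (38.5%, beside 24.3% of all genes). Egfl7, a secreted vessel protein, gave 41531 and 56079 and was saturated on at least 1 array. The VEGF receptor genes Flt1 and Kdr had 6745 and 12509, and 5372 and 8987. Pecam1, an adhesion gene of vessels chosen after its values were seen, had 80.7 and 199, and Lyve1, a lymphatic marker, was not detected on either array. Mesenchyme and fibroblast genes were detected in 24 of 25 cases (96%) and the last was above background on 1 array. Of these 25 genes, 8 lay in the top 25% on both arrays (32%). Fn1, fibronectin, was saturated at 70268 and 73512, and the fibrillar collagen gene Col3a1 had 11732 and 16072. Cartilage and bone genes, at 8 of 13, were near the background of all genes. Col2a1, the cartilage collagen, had 19435 and 29888, while the bone regulators Runx2 and Sp7 were above background on neither array.

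Blood genes were detected in part, and unevenly by kind. Globin genes were detected in 7 of 11 cases (63.6%), near the background. Embryonic globins were bright: Hbb-bh1, a beta-like globin of primitive red cells, had 33407 and 54568. Hbb-y, the other embryonic beta-like globin, had 8689 and 11520. Hba-x, the embryonic alpha-like globin, had 5128 and 7138. The alpha globin genes Hba-a1 and Hba-a2 are near-identical, so their values, 4571 and 7116 for the first and 17488 and 22544 for the second, may not be separate. Adult beta globin was dim or not detected. Hbb-bt (chosen after its values were seen) had 292 and 324, and Hbb-bs, its close relative, was above background on neither array.

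Among other red cell genes 13 of 19 were detected (68.4%), but only 2 reached the top 25% on both arrays (beside 24.3% of all genes). Hemgn, a nuclear protein of blood cells, had 32627 and 57547, and Gata1, the erythroid master regulator, chosen after its values were seen, had 395 and 620. Rhag, a membrane channel of red cells, was not detected. Blood progenitor genes were detected in 13 of 18 cases (72.2%, beside 61.6% of all genes). In the top 25% on both arrays were 27.8% of them, near the 24.3% of all genes. Cd34 had 6648 and 11190, and Kit, the stem cell factor receptor, 5285 and 7158; vessels and germ cells also express these genes. Ptprc (CD45), the general marker of white blood cells, was above background on neither array.

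Of the macrophage and myeloid genes 7 of 18 were detected on both arrays (38.9%, beside 61.6% of all genes), and 11 when replicate 2 was read by itself. Over all 20878 genes, 12869 were detected on both arrays and 14435 on replicate 2 by itself. The receptor gene Csf1r had 1813 and 3222, and the mannose receptor gene Mrc1 had 538 and 842. Lyz1, Lyz2, Adgre1 (F4/80) and Cx3cr1, which mark mature macrophages, were above background on neither array. Of the megakaryocyte and platelet genes 5 of 14 were detected on both arrays (35.7%) and 9 when replicate 2 was read by itself. Itgb3, an integrin, had 1552 and 1383. Lymphocyte genes were detected in 5 of 15 cases (33.3%), also below the share of all genes. Lck, a T cell kinase, had 1772 and 2757, and the antigen receptor genes Cd3e and Cd79b had 306 and 476, and 132 and 207. Their partner genes Cd3d, Cd3g and Cd79a were not detected on either array.

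Trophoblast, a lineage of the placenta, was detected in 18 of 24 genes (75%, beside 61.6% of all genes). Gcm1, the regulator of syncytial trophoblast, had 15761 and 24233. Ctsj, a placental cathepsin, had 9268 and 15003, and the placental prolactin family genes Prl7d1 and Prl3b1 had 7526 and 14713, and 4723 and 7794. Members of both families are similar in sequence, so that a probe may read a relative. Tpbpa, the marker of spongiotrophoblast, and the cathepsin genes Cts7 and Cts8 were above background on neither array. In all, 7 of the 24 genes lay in the top 25% of signal on both arrays (29.2%, near the 24.3% of all genes). Another 2 were above background on 1 array and 4 on neither.

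Neural lists were detected in part. Of the neural progenitor genes 17 of 22 were above background (77.3%), but only 3 were in the top 25% on both arrays (13.6%, beside 24.3% of all genes). Otx2, which also marks epiblast, was the brightest with 27758 and 42848, and Nes, nestin, had 4990 and 7703. Sox1, a factor of early neuroectoderm chosen after its values were seen, had 140 and 202. En1, Emx2 and Otx1, regional brain factors, were not detected. Neuron genes, at 13 of 21 (61.9%), lay at the background share and none was in the top 25% on both arrays. Stmn2, a microtubule regulator of growing axons, had 1825 and 2785, and Neurog1 and Neurog2, which start neuron formation, were above background on neither array. Glia genes were detected in 6 of 12 cases (50%) and neural crest genes in 9 of 16 (56.2%), beside 61.6% of all genes. The astrocyte gene Gfap and the oligodendrocyte factor gene Olig1 were not detected, whereas Mbp, the myelin protein gene, which also has transcripts outside myelin, had 3008 and 5130.

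Genes of mature organs were detected in smaller shares than the 61.6% of all genes. The shares were 33.3% for liver, 41.7% each for kidney and pancreas, 30% for lung and thyroid and 14.3% for photoreceptor and lens. Of the liver genes 6 of 18 were well above background, and 10 had the looser flag of a signal positive and significant against background. Over all 20878 genes, 12869 were well above background and 14828 had that looser flag. Ass1, an enzyme of arginine synthesis made in many cells, was the brightest with 8378 and 12987, and Cps1, Cyp3a11 and Cyp2e1, enzymes of mature hepatocytes, were not detected. Of the kidney and intermediate mesoderm genes 5 of 12 were detected, and 8 with the looser flag. Six2, a nephron progenitor factor also present in mesenchyme, had 5430 and 8228, and Pax2, Pax8 and Nphs1 were above background on neither array. For pancreas, 5 of 12 genes were detected (7 with the looser flag), the brightest being Nkx6-1 with 313 and 568, while Pdx1 and Ptf1a, the early regulators of the organ, were not. For lung and thyroid, 3 of 10 were detected, and Nkx2-1, the regulator of both organs, was not. Photoreceptor and lens genes were above background in 2 of 14 cases, Cryab (6580 and 9849), which other tissues such as heart also express, and Mip (79.6 and 46.5).

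Germ cell genes were detected in 10 of 20 cases (50%, beside 61.6% of all genes). Tex19.1, a gene of germ cells, stem cells and placenta, had 7590 and 10151, and Nanos3, which protects primordial germ cells, had 828 and 1186. Dazl, Stra8, Sycp1 and Sycp2, which act from germ cell licensing to meiosis, were above background on neither array. Sperm genes were detected in 1 of 12 cases, Prm1, a protamine gene, at 102 and 99.9, with 3 when replicate 1 was read by itself and 4 with replicate 2 by itself. Of 7 measured genes of the 2-cell stage 1 was detected, Zfp352, at 2015 and 4011, and 2 were when replicate 2 was read by itself. Zscan4a and Zscan4c, which belong to a family of near-identical copies, were not.

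The genes of the DNA methylation cycle, the subject of the series, were detected in all 17 cases (100%, beside 61.6% of all genes). Tet1, Tet2 and Tet3 encode the dioxygenases that oxidise 5-methylcytosine and are the genes knocked out in the TKO lines. On the brightest probe of each, signals were 2764 and 3844 for Tet1, 734 and 1473 for Tet2, and 89.8 and 121 for Tet3. By these probes each Tet gene was above background on both arrays in these wild-type aggregates. Tet3 was close to the limit of detection (the lowest signal flagged well above background was 43.1 on replicate 1 and 30.7 on replicate 2). Other probes gave 161 and 405 for Tet1 and 188 and 380 for Tet2. Those of Tet3 gave 104 and 64.2, and 43.7 and 80.9. No order among the Tet genes can be read from these signals. Among the methyltransferase genes, Dnmt1, which copies methylation at replication, had 4200 and 5169, and Dnmt3a, a de novo enzyme, had 1493 and 2914. Dnmt3l, the catalytically inactive partner of the de novo enzymes, had 10611 and 16727. Uhrf1, which brings Dnmt1 to replicated DNA, had 18659 and 32806 on its brightest probe and 73.8 and 164 on the other.

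Imprinted genes, expressed from 1 parental allele, were detected in 28 of 29 cases (96.6%, beside 61.6% of all genes). Of the 29, 15 lay in the top 25% on both arrays (51.7%, beside 24.3% of all genes). Cdkn1c, an inhibitor of the cell cycle, had 70433 and 73354 and was saturated on 1 array. Mest had 31367 and 58601, Dlk1, a growth regulator, 31709 and 53463, and the noncoding RNA gene Meg3 of the same cluster as Dlk1 27189 and 44538. Gnasas1, an antisense transcript at the Gnas locus, was not detected on either array. The arrays do not tell alleles apart.

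Hox genes, which specify position along the body axis, were detected in 9 of 39 cases on both arrays (23.1%, beside 61.6% of all genes), and in 18 when replicate 2 was read by itself. None was in the top 25%. The detected genes were 6 of 10 in the Hoxb cluster, 2 of 9 in Hoxc, 1 of 11 in Hoxa and 0 of 9 in Hoxd. By position, they were 9 of 23 with paralogue numbers 1 to 8 and 0 of 16 with numbers 9 to 13. On 1 array only, a further 6 genes with numbers 1 to 8 and 4 with numbers 9 to 13 were above background, 2 of the 10 in Hoxd. Hoxb4 had the highest signals, 767 and 1195. Hoxb2 had 330 and 767, and Hoxb3 had 190 and 229. Hoxa10 and Hoxa11 of the posterior end were above background on neither array.

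Of the sex-linked genes 2 of 8 were detected (25%, beside 61.6% of all genes). The Y-linked genes Eif2s3y and Ddx3y had 314 and 592, and 222 and 373. Xist, the RNA of the inactive X chromosome, was above background on neither array, as were the Y-linked genes Kdm5d, Uty, Usp9y, Zfy1 and Sry.

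The arrays agreed closely. Over the 12415 genes above background and unsaturated on both, log2 signals had a Pearson r of 0.992 across genes, which are not independent replicates. After each array was scaled to its 75th percentile over the detected genes, the log2 difference between the arrays had a standard deviation of 0.299. It was 0.387 among the dimmest of 3 equal parts by signal and 0.197 among the brightest. A 2-fold difference was reached by 147 genes (1.18%), 79 higher in replicate 2 and 68 in replicate 1, and 130 of the 147 (88.4%) lay below the median signal. Only 5 of the 681 unsaturated detected genes in the lists were among them: Aqp4, Mip, Slc12a1 and, chosen after their values were seen, Eif3i and Mef2c. List medians of the difference, over the 44 lists with at least 5 such genes, ran from -0.26 for the globins to 0.20 for the chaperones. The difference in Aqp4 rests on its brightest probe, with 155 on replicate 1 and 40.3 on replicate 2. Its other probe, above background on 1 array only, went the other way, with 22.6 and 58.8.

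The largest single differences were in genes of no list except Aqp4. Serpinb9f, a protease inhibitor gene, had 343 on replicate 1 and 11069 on replicate 2, a scaled log2 difference of 4.28. Tent4b had 205 and 5083, and Coq4 had 178 and 3568. In the other direction Gatad2b had 1981 on replicate 1 and 311 on replicate 2, a scaled log2 difference of -3.41, and Bst1 had 261 and 40.6. With 1 line these differences have no further replicate to be set against, and their cause was not tested.

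**Figure D4:**
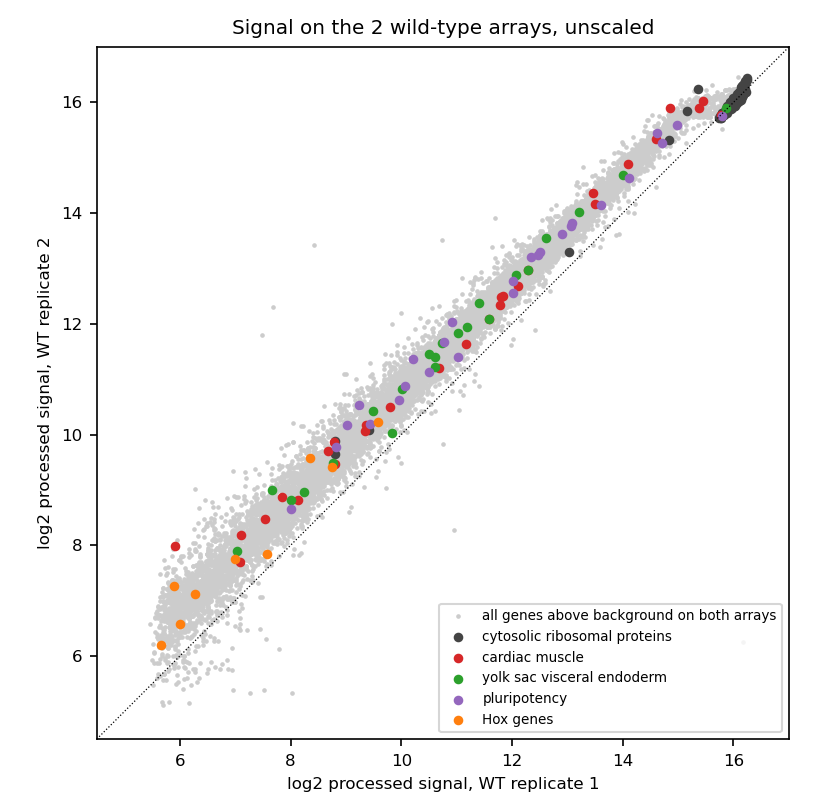
Unscaled log2 processed signal of each gene well above background on both arrays, replicate 1 on the horizontal and replicate 2 on the vertical axis, with 5 lists in colour and the dotted line marking equal signal. Points lie above the line because replicate 2 was brighter, and bend back to it at the top, where ribosomal protein genes reach the scanner's limit.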

How the data were processed

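Cy3-labelled RNA from 2 WT samples was read on Agilent arrays, per the labels' protocols. Per the file headers, Agilent Feature Extraction gave each spot's processed intensity, background-subtracted, with quality flags. A table of log2 values that the authors deposited was used only as an alternative; how it was made is not stated in the labels. Each of its columns tracked the median spot signal of the array it names (r of 0.99531 and 0.99954) more closely than the other array (0.99059 and 0.98711).

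Control and outlier-flagged spots were removed (45 of 55681 probes lost), saturated ones were retained, and repeats were averaged per probe. Probes were named through unversioned accessions in the RefSeq table of GRCm38.p6, which matched 26139 of 26557 curated mRNA accessions; 27482 probes (49.4%) had a symbol. A gene was represented by its brightest probe. Percentiles were taken over genes within an array. Genes named were the 40 brightest, up to 5 of the brightest detected and 4 undetected members of each of 49 lists, all Tet, Dnmt and sex-linked genes and the 8 largest differences each way between the arrays; Gm, Rik and LOC names were only counted. Genes named outside this rule are marked as chosen after their values were seen. A few genes that the rule names are not reported here. The genes and lists were chosen with earlier results of these data known. Repeated probes had a median coefficient of variation of 5.76% and 4.95%; the number of arrays limits precision.

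The alternatives were other detection flags, the probe of median signal, normexp in limma 3.58.1 (R 4.3.3) with offset 50, the deposited table and each array alone. Normexp used the median spot signal. Scripts (Python 3.11.15, pandas 2.3.3, numpy 2.4.6) were tested on simulated spots and promoters.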

Additional observations from a re-analysis of the deposited data

Results flagged for a closer look

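Probes without a gene symbol were outside the gene profile, and 6015 of 28154 (21.4%) were above background on both. Probes named only by a genome region, in the array's mm9 annotation, number 16184 in 3540 regions, and 2461 of them (15.2%) were well above background on both arrays. A probe was above background in 1157 regions (32.7%). Of the 1066 regions with probes for both strands, 153 were above background on both. The highest signal was that of a forward-strand probe for chr12:119825125-119850750, saturated on both arrays at 73856 and 81841. What these probes read was not tested.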

How the results depend on the processing

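No paired analysis was possible because no result comes from a test. The 12869 detected genes became 14590 with detection on at least 1 array, 14828 with the flag for signal positive and significant against background, 11558 with the probe of median signal, and 13045 to 14435 on a single array. With the positive-and-significant flag, detected members numbered 11 for macrophage, 11 for megakaryocyte, 8 for kidney, 10 for liver, 4 for 2-cell stage, 5 for sperm and 20 for Hox genes, and the share of detected promoters with 10 or more CG was 68.4%. With the probe of median signal they numbered 0 for 2-cell stage, 3 for lymphocyte and 2 for sperm. Without WT replicate 2 and without WT replicate 1 the counts were 7 and 11 for macrophage, 6 and 9 for megakaryocyte, 1 and 2 for 2-cell stage, 3 and 4 for sperm and 10 and 18 for Hox genes. Of 203 alternative counts, 185 were within 1.5 times the reported count and 18 were not. Genes 2-fold apart between the arrays fell from 147 to 62 with normexp and to 62 with the matrix values. Normexp starts from the median spot signal, and how the matrix values were made is not stated in the labels. Of the 40 brightest genes 8 stayed among the 40 with normexp, 4 with the matrix and 31 to 32 on a single array, so membership of the 40 is not firm. The median percentile of a list moved by 8.9 at most. Signal over background limits the dim genes, where detection on a single array differed most. The causes were not tested.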

Other observations

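Some genes among the 40 brightest rested on a single probe that another probe of the gene did not bear out. Slc10a1, the bile acid transporter gene of liver cells, had a probe saturated on both arrays at 77399 and 84792 and another above background on neither (11.2 and 7.88). Nlrp1a, an inflammasome sensor gene, had 76558 and 77225 on one probe and 11.0 and 8.76 on another. For Ubtf, a factor of ribosomal RNA transcription, the probes gave 75776 and 85062 against 800 and 1276, and for Fam177a2 76489 and 76884 against 261 and 502. Probes of lineage genes could disagree too. Beside the values given above, the dimmest probe of Gcm1 gave 11.3 and 9.07, and that of Myh6 25.8 and 50.4. That of Cd34 gave 37.5 and 75.2, and that of Zfp352 11.8 and 43.3. By contrast the probes of Hbb-y gave 8689 and 11520 against 8217 and 11420, and those of Tnnt3 549 and 970 against 513 and 862. For the imprinted gene Gnas, a probe was saturated at 72925 and 72205 while others gave 58.8 and 115, and 9.85 and 7.46, so that values of genes with several transcripts depend on which probe is read.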
